A study of Mus musculus with 10 samples.

Results

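The genes described here are 10 that build long-chain fatty acids in the liver cell or control that route, and all 10 were found by symbol among the 15126 genes of the deposited table, with 1 Ensembl identifier each. They are *Acly*, *Acss2*, *Me1*, *Acaca*, *Acacb*, *Fasn*, *Thrsp*, *Pnpla3*, *Srebf1* and *Mlxipl*, and all 10 were among the 11027 genes whose mean reached 1 CPM (a gene's reads scaled to a fixed total of reads counted on genes). The RNA came from livers of 10-week-old *db/db* mice, which lack a working leptin receptor and are obese and diabetic. In 5 of the 10 livers, called AAV8-Control, the mouse had received an adeno-associated virus of serotype 8 (AAV8) that encodes eGFP. The other 5 livers, also *db/db* and given AAV8, enter through correlations, means and spreads over livers, orders of levels, library sizes and outlier checks. No difference between the groups is reported. The methods give male mice, tail vein injection and collection 5 weeks after infection. No *db/db* liver without a virus and no lean liver was analysed here, and the promoter in the vector is not given in the sources used here. The labels name liver as the tissue but also describe cultured hepatocytes and adenovirus, and this conflict could not be settled from them.

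New fatty acids are made in the cytosol from citrate and acetate. These are turned into acetyl-CoA, which is carboxylated to malonyl-CoA and then chained to palmitate with reducing power from NADPH. In the liver this route runs after a meal, when insulin raises SREBP-1c, a product of *Srebf1*, and glucose activates ChREBP, the product of *Mlxipl*. Both are transcription factors whose known targets include the enzymes. In *db/db* livers insulin and glucose are high and the route is active.

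On GRCm38, 4 of the 10 genes lie on chromosome 11, but far from each other. *Fasn* (ENSMUSG00000025153) is on the reverse strand at chr11:120805846-120824547, *Acly* (ENSMUSG00000020917) on the reverse strand at chr11:100476353-100528000, *Acaca* (ENSMUSG00000020532) on the forward strand at chr11:84129672-84401651 and *Srebf1* (ENSMUSG00000020538) on the reverse strand at chr11:60199089-60222581. *Mlxipl* (ENSMUSG00000005373) is on the forward strand at chr5:135089890-135138382. *Acacb* (ENSMUSG00000042010) is on the forward strand of the same chromosome at chr5:114146535-114250761. *Acss2* (ENSMUSG00000027605) is at chr2:155517948-155585724 on the forward strand, *Me1* (ENSMUSG00000032418) at chr9:86581371-86695953 on the reverse strand, *Thrsp* (ENSMUSG00000035686) at chr7:97412938-97417730 on the reverse strand and *Pnpla3* (ENSMUSG00000041653) at chr15:84167837-84187236 on the forward strand.

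The 250 bases before a RefSeq start site are shown for 4 genes to let the letters be set beside their levels. *Fasn* is the synthase itself, *Acly* had the highest median correlation with the other genes, *Pnpla3* varied most between livers and *Mlxipl* moved least with the rest. These 4 windows lie outside the annotated transcripts of their genes. Each is written from 5′ to 3′ on the strand of its gene, from RefSeq on GRCm38.p6. Capitals mark every match, on either strand, to CCAAT (bound by NF-Y), GGGCGG (bound by Sp1), CACGTG (an E-box) or TCACNCCAC (an SREBP element), and adjoining matches run together.
Fasn, chr11:120824548-120824797, reverse strand: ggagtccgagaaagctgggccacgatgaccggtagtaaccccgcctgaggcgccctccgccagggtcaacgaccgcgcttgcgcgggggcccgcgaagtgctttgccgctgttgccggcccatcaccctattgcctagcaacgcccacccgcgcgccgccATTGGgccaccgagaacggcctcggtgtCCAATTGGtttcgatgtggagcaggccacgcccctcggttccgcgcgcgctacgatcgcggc
Acly, chr11:100528001-100528250, reverse strand: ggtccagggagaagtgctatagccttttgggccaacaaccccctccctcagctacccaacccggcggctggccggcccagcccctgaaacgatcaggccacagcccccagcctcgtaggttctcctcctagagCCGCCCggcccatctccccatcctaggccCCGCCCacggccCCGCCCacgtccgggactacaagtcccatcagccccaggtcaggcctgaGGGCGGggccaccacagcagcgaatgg
Pnpla3, chr15:84167566-84167815, forward strand: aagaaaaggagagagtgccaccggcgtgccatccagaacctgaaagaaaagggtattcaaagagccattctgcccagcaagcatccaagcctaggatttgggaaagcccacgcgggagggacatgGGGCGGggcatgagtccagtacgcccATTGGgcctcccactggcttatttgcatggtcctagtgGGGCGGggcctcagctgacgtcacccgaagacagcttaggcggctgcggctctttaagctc
Mlxipl, chr5:135089640-135089889, forward strand: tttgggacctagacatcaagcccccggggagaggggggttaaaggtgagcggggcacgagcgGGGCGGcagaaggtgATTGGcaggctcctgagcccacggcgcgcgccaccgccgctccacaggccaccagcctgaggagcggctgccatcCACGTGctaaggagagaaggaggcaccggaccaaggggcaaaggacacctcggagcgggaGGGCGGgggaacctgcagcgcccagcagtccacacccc

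RefSeq holds 14 such windows for the 10 genes. CCAAT was found in 9 of the 14, in 8 of the 10 genes, beside 33.8% of all 32851 windows and 37.5% of all genes. In the *Fasn* window it occurred 3 times, and 2 of these matches overlap on opposite strands. GGGCGG was found in 7 of the 14 windows, in 6 genes, beside 32.7% of all windows and 35.4% of genes. CACGTG was found in 1 of the 14, the *Mlxipl* window shown, beside 6.02% of all windows. TCACNCCAC was found in 1 of the 14, at the other *Mlxipl* start site, beside 1.05% of all windows. These matches are descriptions of letters and not of binding.

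The 10 libraries held 19499795 to 35498596 reads counted on genes. In AAV8-Control, hepatocyte markers summed to 99643 to 135196 CPM over 9 of 10 listed markers, and markers of Kupffer cells (170.6 to 348.6 CPM), stellate cells (253 to 348.3 CPM) and endothelium (190.9 to 402.9 CPM) were present at lower levels. The labels number the libraries of a group without tying each to a mouse, and p-values measure only the spread between these libraries, which may be technical. In whole tissue, fewer cells of a type and less RNA per cell cannot be told apart.

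Within AAV8-Control, the same livers were high or low in most of the 10 genes. There, replicate 4 was the lowest of the 5 livers in all 10 genes and replicate 3, which also had the most reads, was the highest in 8 of them. On average over the 10, replicates 1 to 5 stood at 0.0885, 0.199, 0.628, -0.892 and -0.0237 from the group mean on the log2 scale. In the other group, 1 liver was the highest in 9 of the 10 genes.

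**Figure D1:**
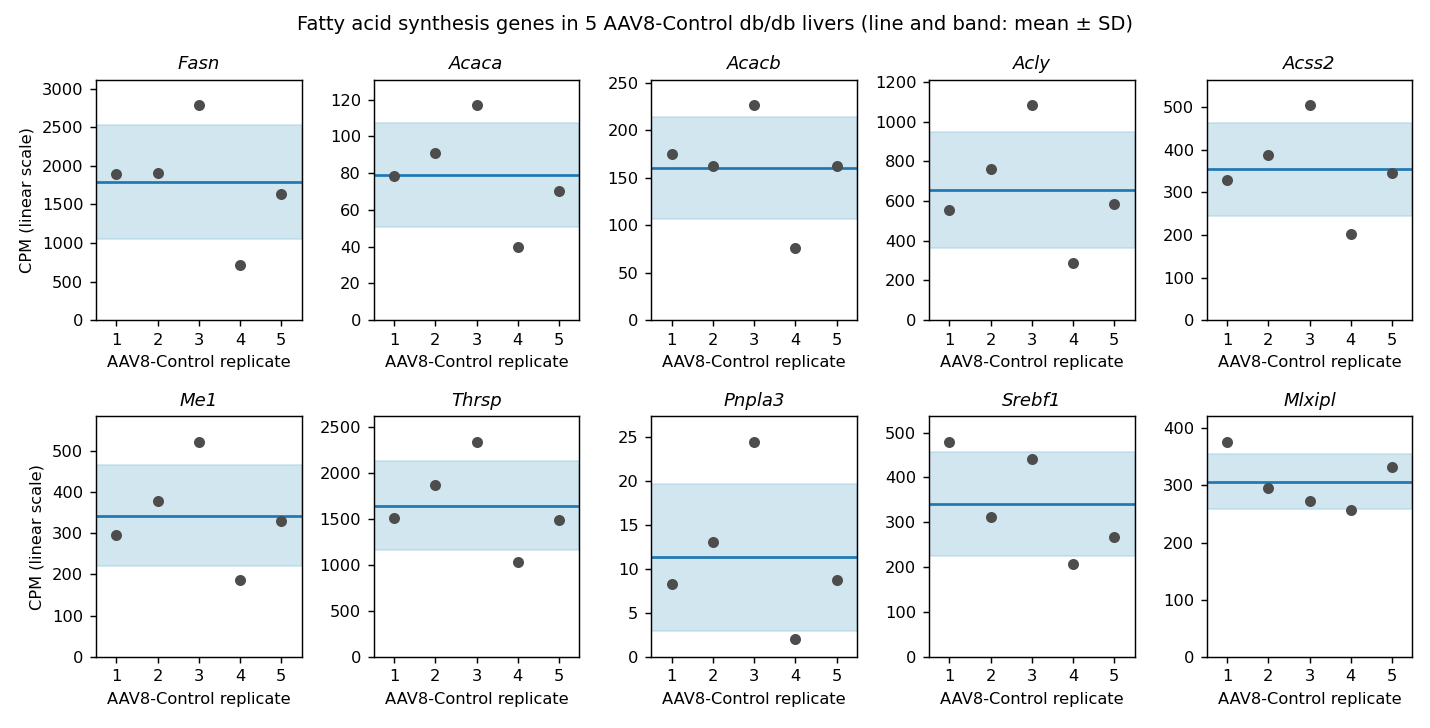
CPM (y axes, linear and separate for each gene) of the 10 genes in AAV8-Control replicates 1 to 5 (x axes). Points are single livers, and the line and band are the mean ± SD with n = 5. Replicate 4 is the lowest point in every panel, and replicate 3 the highest in all but *Srebf1* and *Mlxipl*.

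The supply of acetyl-CoA and NADPH comes first. *Acly*, which splits citrate into acetyl-CoA and oxaloacetate, was at 552.7, 761.8, 1081, 287.0 and 586.6 CPM in AAV8-Control replicates 1 to 5. *Acss2*, which makes acetyl-CoA from acetate, was at 329.5, 388.5, 503.9, 203.0 and 344.6 CPM. Both had the order 3, 2, 5, 1, 4 of the livers from high to low, and *Acly* spanned 3.77-fold where *Acss2* spanned 2.48-fold. About 6.13% of the 50-base stretches of *Acss2* transcripts occur in other genes. These are *Gss*, the antisense gene *Acss2os* and *Ggt7*, whose exons overlap those of *Acss2* on the opposite strand. Whether the counting used strand is not given in the sources used here.

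*Me1*, the cytosolic malic enzyme that yields NADPH, was at 295.6, 379.2, 521.5, 186.5 and 331.0 CPM, a mean of 343 ± 123 CPM (SD, n = 5). It had the same order of livers as *Acly*. A pseudogene, *Gm7049*, and a noncoding gene, *Gm48795*, hold copies of parts of *Me1*, and 28.3% of its 50-base stretches are not its own, so reads from them would not have been counted by a unique alignment.

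The carboxylases make malonyl-CoA. *Acaca*, the cytosolic form that feeds synthesis, was at 78.2, 90.7, 116.8, 39.7 and 70.1 CPM. *Acacb*, the form at the mitochondrial surface whose malonyl-CoA holds back fatty acid import, was at 174.6, 161.9, 225.9, 75.9 and 162.4 CPM. Each spanned close to the same range, 2.94-fold for *Acaca* and 2.98-fold for *Acacb*. For *Acaca*, 30.4% of the 50-base stretches occur in other genes, mostly in the pseudogene *Gm5182*, so its level is a low estimate if unique alignment discarded them.

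*Fasn*, the multifunctional synthase that builds palmitate, was at 1891, 1911, 2782, 714.9 and 1639 CPM, a mean of 1787 ± 739 CPM (SD, n = 5). Replicates 1, 2 and 5 lay close together, with replicate 3 well above them and replicate 4 well below. The transcripts of *Fasn* share no 50-base stretch with another gene. *Thrsp*, also called Spot 14, is a small nuclear protein that rises with lipogenic signals, and it was at 1512, 1864, 2332, 1026 and 1484 CPM.

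*Pnpla3*, a lipid droplet protein and a known target of SREBP-1c, was at 8.31, 13.0, 24.4, 2.0 and 8.75 CPM. It was the most variable of the 10, with a 12.2-fold span and a coefficient of variation of 73.6%, against 41.4% for *Fasn*. Its lowest value rests on 55 reads and its highest on 867 reads.

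The regulators followed another order. *Srebf1* was at 478.7, 311.3, 442.3, 206.1 and 267.5 CPM. *Mlxipl* was at 375.6, 294.9, 272.9, 257.4 and 333.0 CPM and spanned only 1.46-fold. For both the highest control liver was replicate 1, and *Mlxipl* in replicate 3 was the second lowest. The counts on *Srebf1* do not separate SREBP-1c from SREBP-1a, and those on *Mlxipl* do not separate its 10 annotated transcripts. The mRNA levels say nothing of the cleavage of SREBP or the activation of ChREBP.

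Per kilobase of exon, *Thrsp* was highest in AAV8-Control at 751 ± 222 CPM per kb (SD, n = 5), and its range lay above that of the next gene. Then came *Fasn* at 163 ± 67.5, *Acly* at 124 ± 55.5 and *Me1* at 89.1 ± 31.8 CPM per kb. Their ranges overlapped, although *Fasn* was above *Acly* and *Acly* above *Me1* in all 5 control livers. *Srebf1* at 60.6 ± 20.6 and *Mlxipl* at 55.4 ± 8.64 CPM per kb could not be ordered, as *Srebf1* was the higher in 3 of the 5. *Acss2* followed at 34.8 ± 10.7, *Acacb* at 16.6 ± 5.6, *Pnpla3* at 7.30 ± 5.38 and *Acaca* at 4.63 ± 1.65 CPM per kb. The ranges of neighbours overlapped here too. *Me1* was above *Srebf1*, *Mlxipl* above *Acss2* and *Pnpla3* above *Acaca* in 4 of the 5 control livers each, and *Pnpla3* and *Acaca* could not be ordered over the 10 livers, with *Pnpla3* the higher in 5. The lengths are the union of all annotated exons, and those of *Acaca* and *Me1* include sequence shared with other genes.

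Over all 10 livers, the SD within groups on the log2 scale was 0.737 for *Fasn*, and 99.7% of the genes whose mean reached 1 CPM had a smaller one. It was 1.26 for *Pnpla3* and 0.26 for *Mlxipl*, beside a median of 0.157 over all those genes.

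With group means subtracted, the median Pearson r over the 45 pairs of genes was 0.915 across the 10 livers, beside 0.0912 over all pairs of the 11027 genes. An r over 0.9 was seen in 25 of the 45 pairs and in 0.241% of all pairs. Among the 8 genes other than the regulators the median was 0.943, the lowest 0.867, and the highest 0.986, between *Acaca* and *Thrsp*. *Acly* had a median r of 0.963 with its 9 partners and *Me1* one of 0.95. *Srebf1* had 0.786 and *Mlxipl* 0.516, and the lowest pair of all was *Pnpla3* with *Mlxipl* at 0.408. These are correlations over few livers that share a group, a protocol and the sum to which CPM are scaled. Within AAV8-Control alone the median over the 45 pairs was 0.953, and within the other group 0.892.

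**Figure D2:**
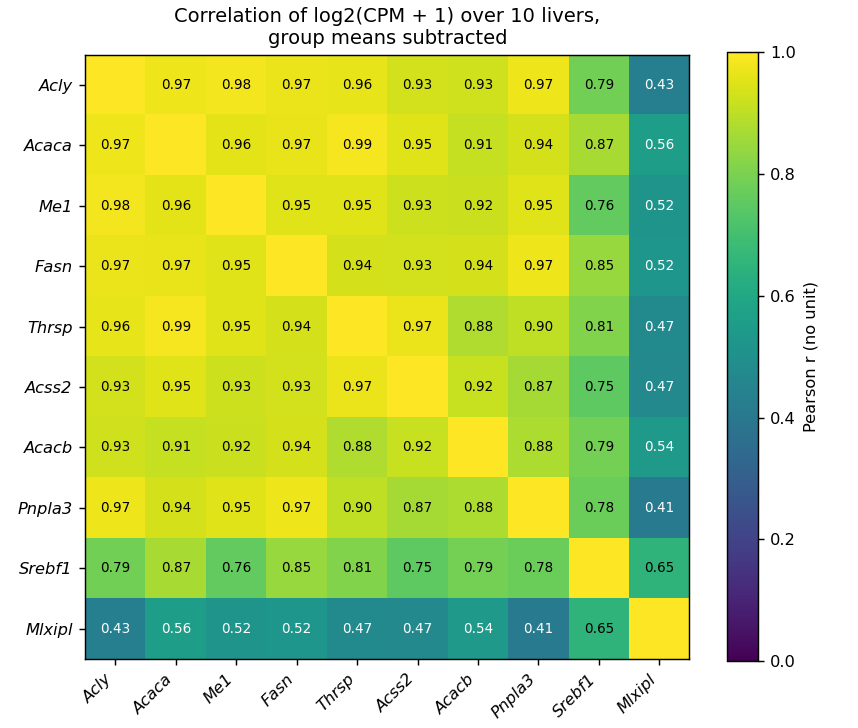
Pearson r (colour and number, from 0 to 1) of log2(CPM + 1) between each pair of the 10 genes (both axes) over 10 livers after group means were subtracted. The 8 enzymes and targets form a block with r of at least 0.867, *Srebf1* lies lower and *Mlxipl* lowest.

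The relation of each regulator to the others was tested over the 10 livers, in 17 relations, first without subtraction of group means and with permutation over all 10 livers, so a difference between the groups enters these values. *Srebf1* rose with *Acaca* at r = 0.886 (permutation p = 0.00187, adjusted p = 0.0215 over the 17) and rho = 0.855 (permutation p = 0.00306, adjusted p = 0.0306). With *Fasn* r was 0.861 (permutation p = 0.00381, adjusted p = 0.0215) and rho 0.758 (permutation p = 0.0148, adjusted p = 0.0642). Over all 8 enzymes and targets r ran from 0.775 with *Acss2* to 0.886 with *Acaca* and each passed an adjusted p of 0.05, while for rho only *Acaca* and *Acacb* did. The share of all genes that would pass the same test with *Srebf1* is not given here. Without the 2 livers farthest from the median of *Srebf1*, which were AAV8-Control replicates 1 and 3, r was 0.736 to 0.925. Within AAV8-Control it was 0.667 to 0.835 and within the other group 0.737 to 0.964. With group means subtracted and livers permuted only within their group, a test added after the data were seen, r was 0.75 to 0.87 over the 8 genes (exact permutation, adjusted p of 0.0311 to 0.0401).

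*Mlxipl* gave lower values with the same 8 genes. With *Fasn* r was 0.599 (permutation p = 0.072, adjusted p = 0.0947) and rho 0.503 (permutation p = 0.145, adjusted p = 0.164). Over the 8 genes r was 0.491 to 0.621 and none passed an adjusted p of 0.05. Without the 2 livers farthest from its median, both outside AAV8-Control, r was 0.157 to 0.494. Within AAV8-Control r was 0.0522 to 0.424 and within the other group 0.566 to 0.858. With group means subtracted and livers permuted within groups it was 0.408 to 0.56 (exact permutation, adjusted p of 0.176 to 0.28). *Srebf1* and *Mlxipl* had r = 0.692 with each other (permutation p = 0.0299, adjusted p = 0.0565) and rho = 0.721 (permutation p = 0.0237, adjusted p = 0.065), and r = 0.65 with group means subtracted (exact permutation p = 0.0595, adjusted p = 0.112). Whether the values for *Srebf1* and *Mlxipl* differ was not tested.

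**Figure D3:**
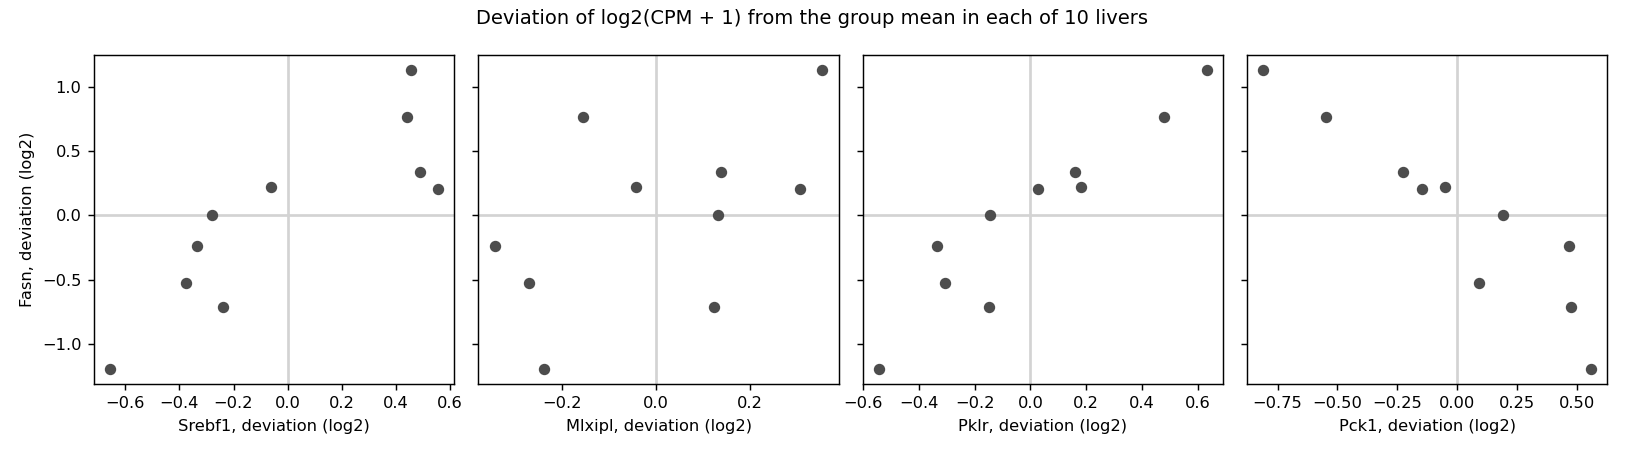
Deviation of *Fasn* from its group mean (y axis, log2 scale) against that of *Srebf1*, *Mlxipl*, *Pklr* and *Pck1* (x axes, log2 scale), with 1 point for each of 10 livers. *Fasn* rises with *Srebf1* and *Pklr*, falls with *Pck1*, and is loosely ordered with *Mlxipl*.

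Outside the 10, the genes whose pattern over the livers was most like their mean were *Scd1* (r = 0.981), *Cyb5r3* (0.979), *Pklr* (0.976), *Gpam* (0.974), *Elovl5* (0.967) and *Tkt*, *Tkfc* and *Chrna4* (each 0.966), after group means were subtracted. *Scd1* makes oleate from stearate, *Pklr* is the liver pyruvate kinase, *Gpam* takes the first step of glycerolipid synthesis and *Elovl5* elongates fatty acids. *Tkt* belongs to the pentose phosphate route and *Tkfc* to fructose use. *Chrna4* was at a low level, with a mean of 6.31 CPM over the 10 livers. An r over 0.9 was reached by 41 of the 11017 other genes, which is 0.372%. *Scd1* was at 21694, 22999, 34754, 5535 and 17622 CPM in AAV8-Control replicates 1 to 5, and *Pklr* at 556.5, 619.3, 760.2, 374.2 and 493.5 CPM, so both shared the high replicate 3 and the low replicate 4.

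The lowest values belonged to *Zfp971* (-0.94), *Ube2q2* (-0.938), *Antxr2* (-0.933) and *Sult2a7* (-0.93). *Zfp971*, at a mean of 1.11 CPM over the 10 livers, lay just above the 1 CPM required. *Pck1*, which encodes the gluconeogenic enzyme PEPCK, stood at -0.923, the eighth lowest of the 11017, and *Tat*, a tyrosine aminotransferase, at -0.763. *Pck1* was at 1725, 1844, 1307, 2818 and 2185 CPM in AAV8-Control, lowest in replicate 3 and highest in replicate 4, the reverse of *Fasn*. The feeding state at collection is not given in the labels, and its part in these values was not tested.

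Related lists, chosen like the members with earlier results known, were read for the same r with the mean of the 10 genes. In the supply of carbon and NADPH the median r was 0.755 over 12 genes, and 3 were over 0.9, *Tkt*, *Pgd* (0.941) and *Taldo1* (0.916). They belong to the pentose phosphate route, of which *G6pdx* (0.705) and *Pgls* (0.328) are also in the list and did not reach 0.9. In desaturation, elongation and glycerolipid synthesis the median was 0.766 over 19 genes, with 6 over 0.9. Besides *Scd1*, *Gpam* and *Elovl5* these were *Elovl6* (0.958), *Acsl5* (0.927) and *Agpat2* (0.922). In glucose entry and ChREBP targets the median was 0.518 over 14 genes, and *Pklr*, *Tkfc* and the fructokinase *Khk* (0.942) were over 0.9. The SREBP-1c and LXR control genes had a median of 0.0024 over 22 genes and none over 0.9. The median over all other genes was -0.0454.

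**Figure D4:**
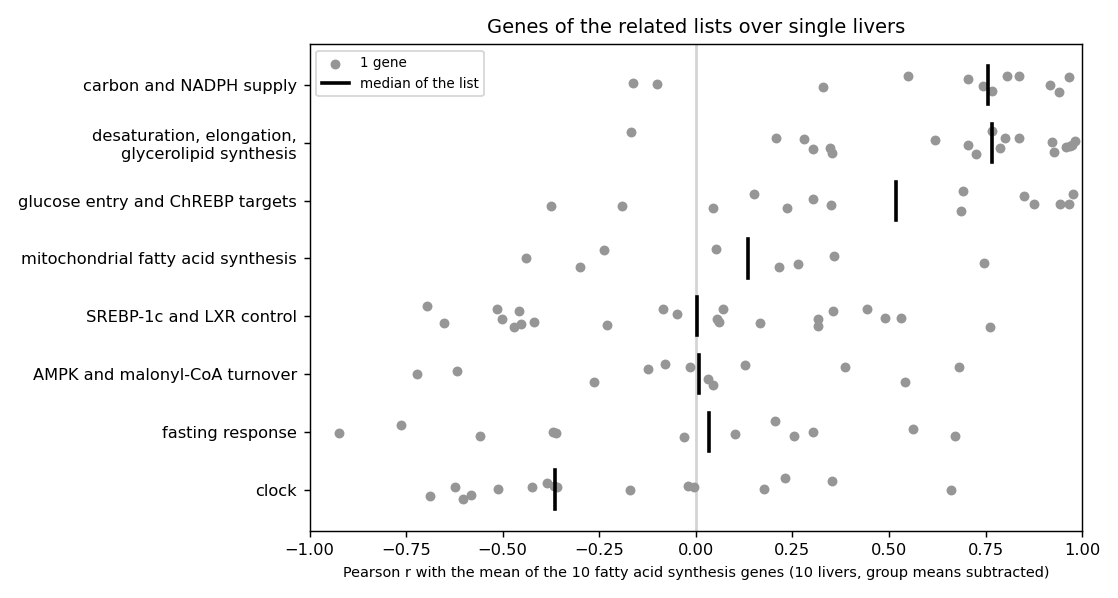
Pearson r (x axis, from -1 to 1) of each gene of the related lists (y axis) with the mean of the 10 fatty acid synthesis genes over 10 livers, group means subtracted. Points are single genes and black lines are list medians. Carbon and NADPH supply (0.755) and desaturation, elongation and glycerolipid synthesis (0.766) lie to the right, and the clock list (-0.363) lies to the left.

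Fat cells also make fatty acids, so markers of adipocytes were read. In AAV8-Control they summed to 2.84 to 16.1 CPM over 8 markers, with *Adipoq* at most at 1.23 CPM and *Lep* at 0 in 4 of the 5 livers. *Cfd*, at 9.85, 8.28, 2.79, 1.02 and 1.74 CPM in replicates 1 to 5, and *Retn*, at 3.39, 1.88, 2.68, 1.09 and 1.64 CPM, made up most of the sum. The sum was highest in replicate 1 and lowest in replicate 4, the liver lowest in all 10 genes. Over the 10 livers *Retn* had an r of 0.71 and *Cfd* one of 0.421 with the mean of the 10 genes, group means subtracted. Over the 10 livers the summed adipocyte level had an r of 0.59 with the mean of the 10 genes after group means were subtracted, and its part in the pattern was not tested. The r was -0.043 for summed hepatocyte markers, 0.332 for Kupffer cell and macrophage markers, 0.274 for stellate cell and fibroblast markers, 0.249 for endothelial markers and 0.193 for total reads.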

How the data were processed

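RNA-seq of 10 livers was analysed. The authors aligned 50-base single reads with STAR 2.0.4b to GRCm38.p2, counted uniquely aligned reads with featureCounts 1.4.5 and deposited CPM values, a step that is not described. The table has 15236 lines for 15126 protein-coding genes, with 110 repeated lines. All CPM gave whole reads (tolerance 0.01). Correlations were taken on log2(CPM + 1) with numpy 2.4.6, for genes whose mean reached 1 CPM, with 100000 resamples for each permutation p (two-sided) and Benjamini-Hochberg adjustment over 17 relations. Alternatives were DESeq2 1.42.0 size factors, subtraction of group means or none, each liver left out and, added after the data were seen, exact permutation within groups (14400 arrangements). Exons came from GENCODE (15123 genes matched), promoters from RefSeq.

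The members, lists and tests were chosen with earlier results of these data known. The difference between the groups, and some genes of the lists, are not reported here. The rule named all members and the 8 most and 4 least similar genes. Other genes named, and the 4 promoters shown, were picked after values were seen. Within groups, libraries differed by more than sampling noise (lowest chi-square per degree of freedom 15.9).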

Additional observations from a re-analysis of the deposited data

Results flagged for a closer look

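The 10 genes and the 12 genes named as most or least like them, 22 in all, were checked on log2(CPM + 1) in each group of 5 livers for a liver whose gap to its neighbour was more than 0.71 of the group's range. Of these 44 checks, which share the same 10 livers, 1 found such a liver, where chance gives about 1 in 20. *Cyb5r3* was at 552 CPM in AAV8-Control replicate 4, below the other 4 controls.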

How the results depend on the processing

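The median r over the 45 pairs of the 10 genes was 0.872 to 0.935 with single livers left out, lowest without AAV8-Control replicate 4, beside 0.915 with all 10. It was 0.918 without subtraction of group means and 0.918 after rescaling by DESeq2 size factors. The median r over the 17 relations of the regulators was 0.624 to 0.76 with single livers left out, beside 0.692. It was 0.65 with group means subtracted and 0.708 with DESeq2 size factors. Permutation within groups changes only the p-values and cannot change r. Both groups number their livers 1 to 5, and the labels do not say that a number marks a shared litter, batch or day. Over all genes, the deviations of same-numbered livers had an r of 0.0751 to 0.314, and 4 of the 5 AAV8-Control livers correlated best with their own number. Whether the numbers mark a pairing was not tested. All permutation p-values given here treat the livers as unpaired and take no account of a structure shared by number. With the replicate number as a block, an alternative added after the data were seen that also subtracts group means, the medians were 0.889 over the 45 pairs and 0.704 over the 17 relations. With 10 livers an r has a wide error, and the lowest levels of *Pnpla3* rest on few reads.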

Other observations

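The 9 hepatocyte markers differed among themselves in how they followed the 10 fatty acid synthesis genes over single livers, with a median r of -0.206 with their mean after group means were subtracted. *Apob*, the protein of very low density lipoprotein, was at -0.9, *Cps1*, the first enzyme of the urea cycle, at -0.831 and *Serpina1a* at -0.821. *Apoa1* (0.276), *Asgr1* (0.267), *Ttr* (0.187) and *Alb* (0.0402) were above 0. Most of the summed level of the list is *Alb*. The clock genes were spread widely around a median r of -0.363 over 16 genes, from *Nr1d1* at -0.687 to *Npas2* at 0.66, with *Arntl* at 0.353 and *Per1* at 0.23. The fasting list had a median of 0.0344 over 12 genes, with *Pck1* and *Tat* far below it.

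The mitochondrial route of fatty acid synthesis, which makes the precursor of lipoate, had a median r of 0.134 over 8 genes. Genes of AMPK and malonyl-CoA turnover had a median of 0.0077 over 12 genes. Cholangiocyte and lymphocyte markers, as sums, had an r of 0.0318 and -0.288.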
